A study of Homo sapiens with 6 samples.

Results

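The genes described here are 40 listed genes of G2 phase and mitosis, whose transcription was followed with PRO-seq, a nuclear run-on assay, after the neurotoxin MPP+ was given to SH-SY5Y cells. They were chosen by gene symbol, with no measured value in the rule, though earlier results of these data were known. Each symbol matched 1 of the 67051 gene identifiers in the count tables. Of the 40 genes, 38 had enough reads to be tested, among 23133 genes tested in all. NUSAP1 and PRC1 did not, and their counts are given after the levels.

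SH-SY5Y is a human neuroblastoma cell line that divides in culture, and MPP+, the active metabolite of MPTP, inhibits mitochondrial complex I. The groups were cells exposed to 0.1 mM MPP+ over 0.5 h, cells exposed to 0.1 mM MPP+ over 24 h, and untreated cells, with 2 libraries each and the same cell line in every group. PRO-seq sequences RNA still held by engaged RNA polymerases, so a count reports engaged polymerases on a gene and not the amount of its mature mRNA. The study compared each exposure with untreated cells. The same untreated group served both exposure times, with no time given for it in the labels, so time in culture and exposure were not separated. Whether replicate libraries were made from different cultures is not stated in the labels, so p-values reflect library-to-library spread that could be technical.

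A dividing cell enters mitosis when cyclin B and its kinase CDK1 become active, aided by the CDC25 phosphatases and the Polo and Aurora kinases. The spindle then attaches to the centromeres, a checkpoint delays anaphase until every chromosome is attached, and the anaphase-promoting complex with CDC20 ends mitosis by marking cyclin B for destruction. Most genes of these steps are transcribed late in the cell cycle and little in resting cells. The MuvB complex binds their promoters at a short element, the cell cycle genes homology region (CHR). As part of the DREAM complex, MuvB represses them in resting cells. With B-MYB and FOXM1 it activates them in G2, often beside CCAAT boxes bound by NF-Y. In tissue, RNA of these genes is read as a sign of proliferation.

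Promoter sequences show what the genes share outside the measurements. RefSeq promoter windows (GRCh38.p14, 250 bases before to 50 bases after a start) were held for 33 of the 40 genes. AURKA, BIRC5, BUB3, FOXM1, TPX2, TTK and UBE2C had none in that table. Each window was searched for CHR-like letters, TTTGAA or TTCGAA, and for CCAAT, on both strands. The reverse strand shows TTTGAA as TTCAAA and CCAAT as ATTGG, while TTCGAA reads alike on both. CHR-like letters were in a window of 26 of the 33 genes (78.8%), against 19.5% of all 27305 genes with a window. They lay wholly within the 50 bases before the start in 14 of the 33 (42.4%), against 3.06% of all genes, a distance chosen after the positions were seen. At least 1 CCAAT was found in 27 of the 33 (81.8%), against 39.7% of all genes, and at least 2 in 17 (51.5%), against 12.9%. Both kinds of letters stood in 1 window of 22 genes (66.7%), against 7.85% of all genes. A match is a description of letters and does not show a bound factor.

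The 120 bases before the start are printed for 11 genes that span the roles and that show the range from several matches to none. They run 5′ to 3′ on the strand of the gene, with the searched letters in capitals. For entry into mitosis they are CCNB1 (chr5:69167030-69167149, plus strand), CCNB2 (chr15:59105026-59105145, plus strand), CDK1 (chr10:60778358-60778477, plus strand) and PLK1 (chr16:23678769-23678888, plus strand). For the checkpoint and anaphase they are CDC20 (chr1:43358861-43358980, plus strand), BUB1B (chr15:40160949-40161068, plus strand) and MAD2L1 (chr4:120066849-120066968, minus strand). For centromere and spindle they are CENPA (chr2:26785936-26786055, plus strand), HMMR (chr5:163460512-163460631, plus strand), KIF11 (chr10:92593010-92593129, plus strand) and KIF4A (chrX:70289984-70290103, plus strand).
CCNB1: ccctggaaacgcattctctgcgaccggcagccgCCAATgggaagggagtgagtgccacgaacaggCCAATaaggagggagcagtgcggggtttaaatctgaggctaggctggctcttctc
CCNB2: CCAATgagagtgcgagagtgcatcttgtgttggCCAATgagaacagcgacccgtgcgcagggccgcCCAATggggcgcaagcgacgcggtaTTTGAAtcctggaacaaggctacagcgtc
CDK1: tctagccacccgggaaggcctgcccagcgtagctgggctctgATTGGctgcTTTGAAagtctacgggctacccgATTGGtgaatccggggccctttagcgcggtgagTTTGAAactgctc
PLK1: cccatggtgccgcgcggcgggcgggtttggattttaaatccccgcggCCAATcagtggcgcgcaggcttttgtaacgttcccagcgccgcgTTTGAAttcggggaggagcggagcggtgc
CDC20: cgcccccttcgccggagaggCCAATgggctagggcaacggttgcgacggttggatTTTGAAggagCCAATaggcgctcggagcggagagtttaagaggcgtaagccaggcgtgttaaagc
BUB1B: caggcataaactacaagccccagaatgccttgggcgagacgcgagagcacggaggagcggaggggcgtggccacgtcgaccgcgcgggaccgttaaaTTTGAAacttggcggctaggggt
MAD2L1: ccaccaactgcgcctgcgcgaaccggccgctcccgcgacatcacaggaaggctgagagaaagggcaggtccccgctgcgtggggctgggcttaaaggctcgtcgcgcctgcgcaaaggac
CENPA: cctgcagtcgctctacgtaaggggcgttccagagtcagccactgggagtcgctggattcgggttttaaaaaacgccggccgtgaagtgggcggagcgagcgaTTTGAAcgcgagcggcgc
HMMR: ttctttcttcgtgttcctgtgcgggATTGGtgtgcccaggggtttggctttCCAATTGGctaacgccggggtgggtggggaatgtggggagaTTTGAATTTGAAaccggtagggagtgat
KIF11: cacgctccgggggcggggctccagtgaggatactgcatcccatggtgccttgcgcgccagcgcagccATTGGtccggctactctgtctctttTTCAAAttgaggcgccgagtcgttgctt
KIF4A: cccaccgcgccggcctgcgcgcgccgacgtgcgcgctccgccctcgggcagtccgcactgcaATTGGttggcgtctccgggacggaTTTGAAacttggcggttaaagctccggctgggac

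CCNB2 held 3 CCAAT and 1 CHR-like match in these 120 bases, and CDK1 held 2 of each. CCNB1 had 2 CCAAT and no CHR-like letters here, whereas BUB1B and CENPA had the CHR-like letters and no CCAAT. KIF11 carried its CHR-like letters on the reverse strand. In HMMR a forward and a reverse CCAAT share letters, and its 2 CHR-like matches adjoin. MAD2L1 had neither in this stretch, which says only that these letters are not in these bases.

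**Figure D1:**
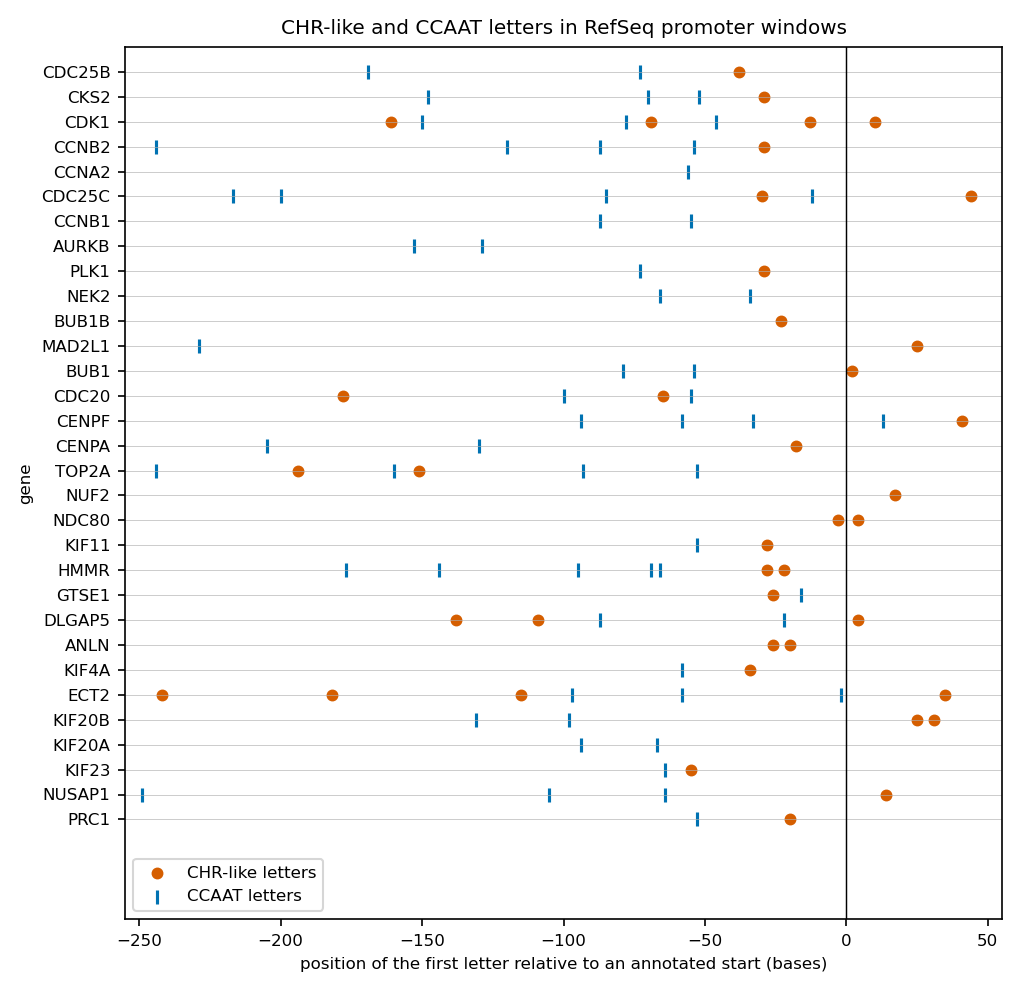
Positions of CHR-like letters (TTTGAA or TTCGAA) and of CCAAT in the RefSeq promoter windows of the genes with at least 1 match. The horizontal axis is the distance in bases from the start, and each mark is the first base of a match. CHR-like letters lie wholly within the 50 bases before the start in 14 of the 33 genes with a window.

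Assigned counts were 11707612 and 8714604 in the 0.5 h libraries, 8573601 and 5983066 in the 24 h libraries, and 7044839 and 8381006 in the untreated libraries. Levels are given as CPM, counts divided by TMM-scaled library sizes. Fold changes are therefore relative to the other genes, and a change shared by all genes would not show. All 10 adrenergic neuroblastoma markers examined, DBH and CHGA among them, were transcribed, with summed levels of 4337 to 5004 CPM at 0.5 h, 3959 to 4870 CPM at 24 h and 4522 to 5112 CPM in untreated cells. Of 10 markers of other cell types, KRT5, a keratin of basal epithelium, had 0 counts in every library, and the summed level of all 10 was 170 to 211 CPM at 0.5 h, 162 to 182 CPM at 24 h and 156 to 182 CPM in untreated cells, most of it EPCAM. In bulk nuclei, fewer cells in G2 and mitosis and less transcription per such cell cannot be told apart.

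All 38 tested genes were transcribed in all 6 libraries, with 122 to 2478 counts each. Mean levels over the 6 libraries ran from 19.9 CPM for FOXM1, a transcription factor of G2 genes, to 189 CPM for KIF11, a spindle motor. Because a long gene can collect more reads, levels are compared between genes only per kilobase of gene that no other gene covers. On that scale the median was 1.97 CPM per kb. The highest were CKS2, a small subunit of cyclin-dependent kinases, at 12.6 CPM per kb, AURKB at 9.38, UBE2C at 7.61, CDC20 at 6.31 and BIRC5 at 5.46. The lowest were CENPE at 0.471 CPM per kb and KIF4A at 0.477, both kinesins with long genes. Across the 38 genes, length and CPM had a Spearman correlation of 0.35. Length and CPM per kb had one of -0.80, given as a description, since length enters both. The order per kb thus largely follows gene length and was not read as a difference in transcription.

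NUSAP1, which bundles spindle microtubules, had 0 and 1 counts at 0.5 h, 0 and 1 at 24 h, and 0 and 0 in untreated cells. PRC1, which crosslinks the microtubules of the central spindle, had 7 and 3 counts at 0.5 h, 5 and 1 at 24 h, and 4 and 0 in untreated cells. In GENCODE 29, other annotated genes cover 99.4% of NUSAP1 and 99.5% of PRC1. Small processed pseudogenes give a measure of how such overlaps were counted. Inside an expressed gene of the same strand, 647 of 647 had 0 counts in every library, as did 1273 of 1275 inside a gene of the opposite strand, against 1766 of 5430 that overlapped no gene. The low counts of NUSAP1 and PRC1 were therefore not read as levels of transcription, and the part of the overlap in them was not tested. Other genes also cover 62.0% of NUF2, 46.1% of CENPA, 31.2% of KIF2C, 27.98% of HMMR and 22.8% of CCNB2, while 16 of the 40 genes overlap none.

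**Figure D2:**
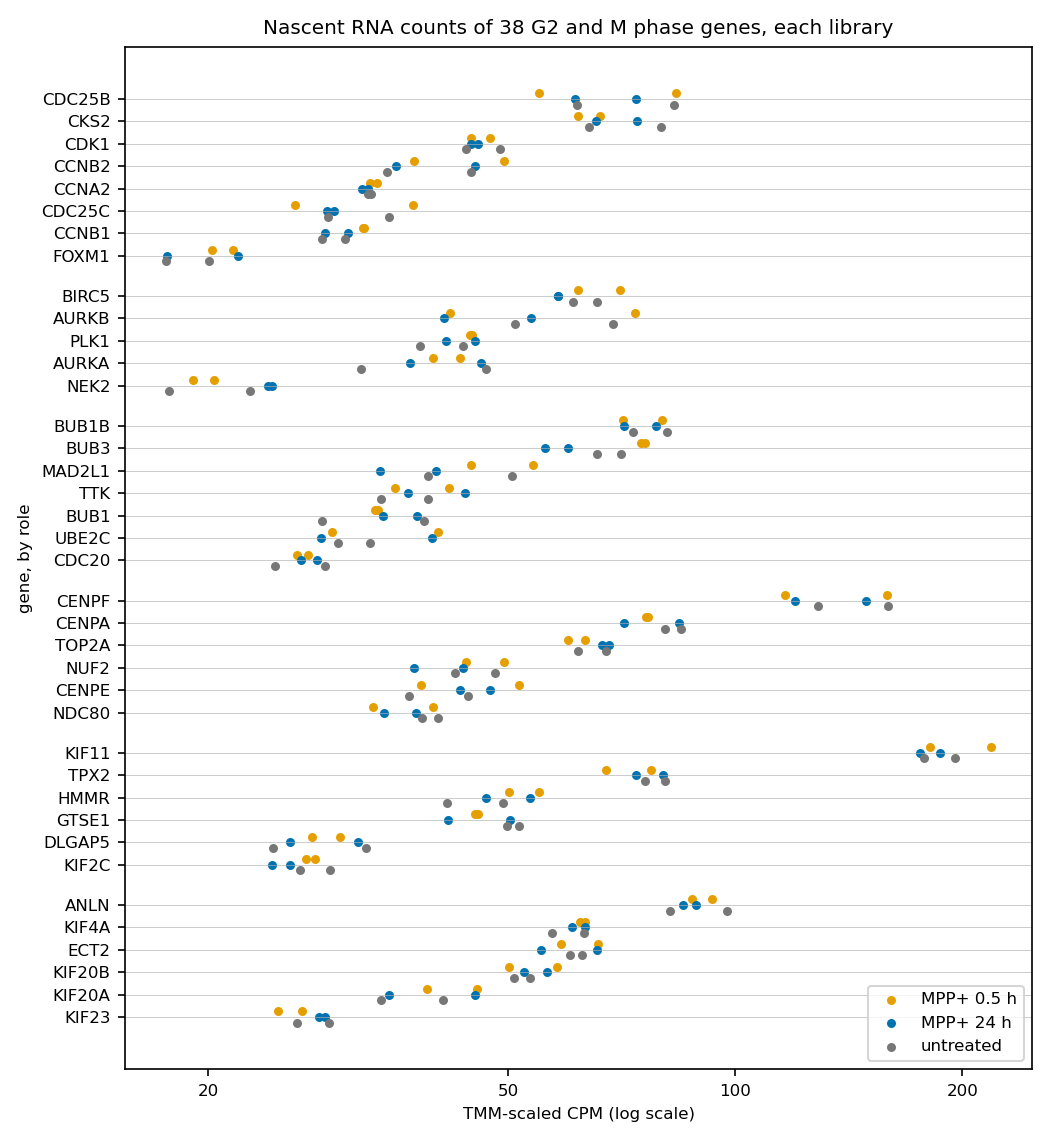
Level of each of the 38 tested genes in every library, in CPM on a log axis, with the genes ordered by role and 1 point for each 0.5 h, 24 h and untreated library. The levels run from FOXM1 near 19.9 CPM to KIF11 near 189 CPM.

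Transcription of the mitotic genes showed no called change at either time. By edgeR's quasi-likelihood test with Benjamini-Hochberg adjustment over all 23133 genes, at a threshold of 0.05, 0 of the 38 genes were called at 0.5 h against untreated, where 0.0735% of all genes were. For 24 h against untreated 0 of 38 were called, where 0.0692% of all genes were, and at 24 h against 0.5 h 0 of 38, where 0% of all genes were. DESeq2 also called 0 of the 38 in each comparison. Calls were rare among all genes, so these counts of 0 are close to the background and are no result about the mitotic genes on their own. At 0.5 h the 95% interval of the fold change lay within 1.5-fold either way for 36 of the 38 genes, against 52% of all genes, and within 2-fold for all 38, against 81.6%. At 24 h it lay within 1.5-fold for 35 genes, against 45.6% of all genes, and within 2-fold for all 38, against 77.8%. AURKB and UBE2C fell outside the narrower bound at 0.5 h, and AURKB, NEK2 and MAD2L1 at 24 h. The median SE of the 38 genes was 0.131 at 0.5 h and 0.134 at 24 h, against 0.193 and 0.196 for all genes. Narrower intervals raise such shares, so the shares do not show that these genes were steadier than others.

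The fold changes of the 38 genes were spread on both sides of 0. At 0.5 h against untreated, log2 fold changes ran from -0.16 to 0.21 with a median of 0.014, where the median of all genes was 0.0082, and 23 genes were above 0 and 15 below, where 47.9% of all genes were below. Without 0.5 h replicate 1, 27 were below 0. The 24 h values against untreated ran from -0.33 to 0.25 with a median of -0.021, where the median of all genes was 0.0023, and 18 were above 0 and 20 below. No gene had an unadjusted p under 0.05 at 0.5 h, where 1.05% of all genes did on the higher side and 1.41% on the lower. Without untreated replicate 2, CKS2 and HMMR did, and without 0.5 h replicate 1 AURKB did. At 24 h 1 gene did, BUB3 on the lower side, where 4.09% of all genes did. Without untreated replicate 1, without either 24 h library, with upper-quartile scaling, with the 2 groups alone or by DESeq2, no gene did, whereas 3 genes did without untreated replicate 2.

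Separation of the library values was also at or under the background. At 0.5 h both libraries lay above both untreated libraries for 5 genes (CCNB1, FOXM1, PLK1, BUB3 and HMMR) of 38, against 12.9% of all genes. Both lay below for CENPA and GTSE1, against 14.4% of all genes. At 24 h NEK2 alone lay above, against 18.8% of all genes, and BIRC5, BUB3, NDC80 and KIF2C lay below, against 18.5%. The summed level of the 38 genes was 2207 and 1937 CPM in the 0.5 h libraries, 2089 and 1906 CPM in the 24 h libraries, and 2052 and 2043 CPM in the untreated libraries. The untreated sums lie between the lowest and the highest of each exposed pair, so the groups overlap.

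**Figure D3:**
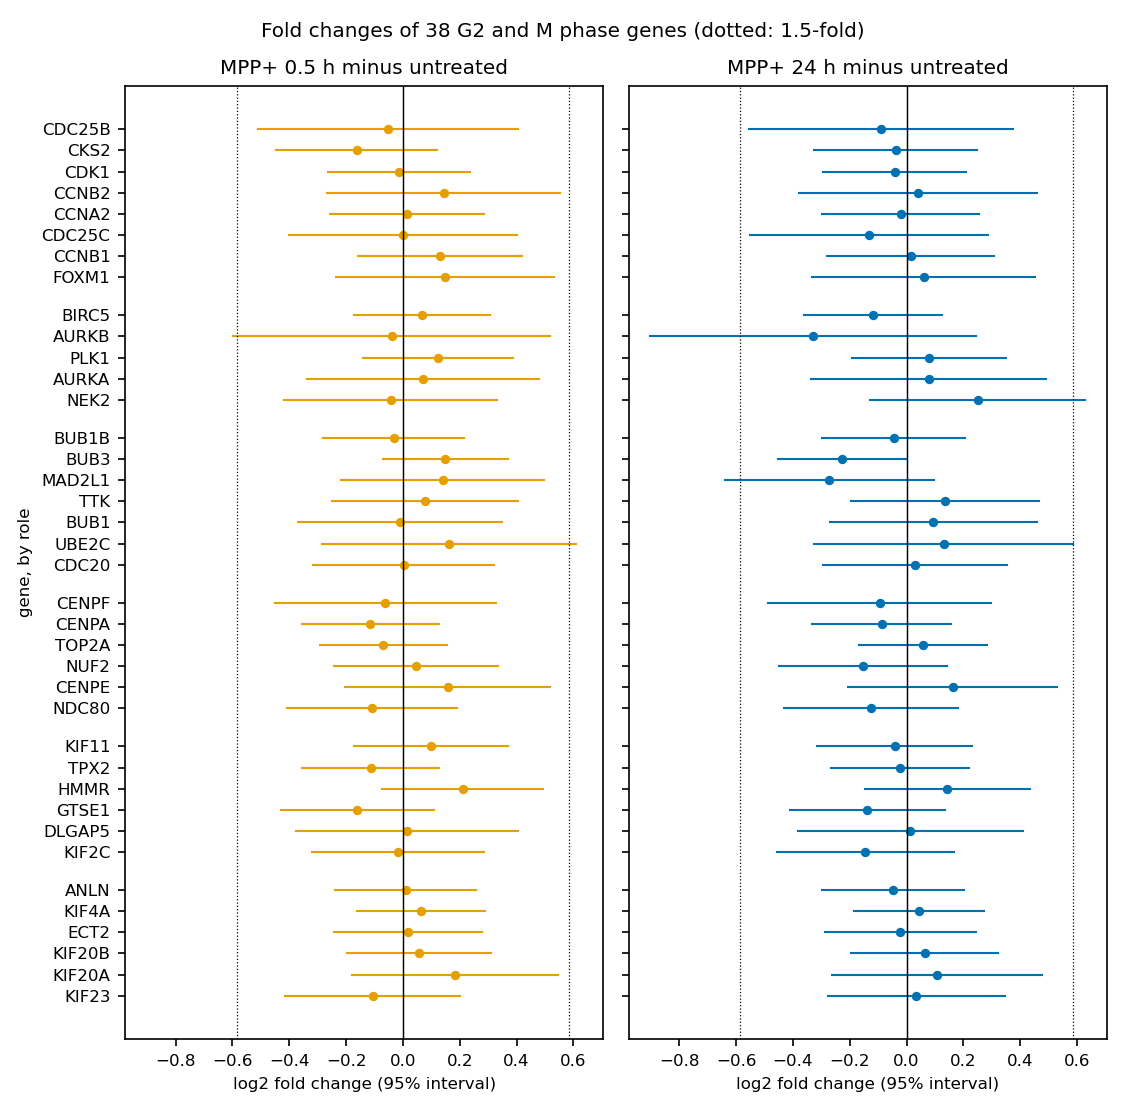
Log2 fold changes of the 38 tested genes with 95% intervals, ordered by role, at 0.5 h and at 24 h, each against untreated. Dotted lines mark 1.5-fold either way. Most points lie near 0, and at 24 h against untreated the intervals of 35 genes stay inside the dotted lines.

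None of the 8 genes that start mitosis was called, and their median log2 fold change was 0.0076 at 0.5 h and -0.029 at 24 h. CDK1, the kinase that drives mitosis, had 47.4 and 44.6 CPM at 0.5 h, 44.7 and 45.6 CPM at 24 h, and 44.0 and 48.8 CPM in untreated cells. Its log2 fold change was -0.014 ± 0.11 at 0.5 h and -0.042 ± 0.11 at 24 h against untreated (± SE, 2 libraries per group), with a 95% interval of -0.30 to 0.21 at 24 h. The 6 libraries differ by little, and both exposed pairs overlap the untreated pair. CCNB2, a B-type cyclin that partners CDK1, had 49.4 and 37.5 CPM at 0.5 h, 45.2 and 35.6 CPM at 24 h, and 44.6 and 34.6 CPM in untreated cells. CCNB1, the main mitotic cyclin and named although its level was outside the 4 highest of its role, had 32.2 and 32.1 CPM at 0.5 h, 30.7 and 28.6 CPM at 24 h, and 28.3 and 30.4 CPM in untreated cells. Both 0.5 h libraries of CCNB1 lay above both untreated ones, at a log2 fold change of 0.13 ± 0.13, and the 24 h pair overlapped the untreated pair.

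CDC25B, a phosphatase that activates cyclin-dependent kinases, had 83.6 and 54.95 CPM at 0.5 h, 73.9 and 61.4 CPM at 24 h, and 83.0 and 61.7 CPM in untreated cells. Replicate 1 was the higher library in every group, by more than any difference between the group means. CKS2 had 66.1 and 61.9 CPM at 0.5 h, 74.0 and 65.4 CPM at 24 h, and 79.7 and 64.0 CPM in untreated cells, and its groups overlapped at both times. The other genes of this role had 24 h log2 fold changes of -0.02 for CCNA2, the cyclin of S and G2 phase, -0.13 for CDC25C, a phosphatase acting on CDK1, and 0.061 for FOXM1.

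Among the mitotic kinases and the chromosomal passenger complex, PLK1, which acts at centrosome, kinetochore and midzone, had 44.8 and 44.5 CPM at 0.5 h, 45.1 and 41.4 CPM at 24 h, and 38.3 and 43.6 CPM in untreated cells. For PLK1 the 24 h log2 fold change was 0.08 ± 0.12, with a 95% interval of -0.19 to 0.35. AURKA, the kinase of centrosome and spindle pole, had 39.8 and 43.2 CPM at 0.5 h, 46.0 and 37.0 CPM at 24 h, and 31.9 and 46.7 CPM in untreated cells, with the 2 untreated libraries enclosing all 4 exposed ones. BIRC5 (survivin), a subunit of the passenger complex, had 70.5 and 62.0 CPM at 0.5 h, 58.3 and 58.3 CPM at 24 h, and 60.9 and 65.6 CPM in untreated cells. Both 24 h libraries lay below both untreated ones, at a log2 fold change of -0.12 ± 0.11.

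AURKB, the kinase of the passenger complex, had 73.7 and 41.8 CPM at 0.5 h, 53.7 and 41.1 CPM at 24 h, and 68.9 and 51.0 CPM in untreated cells. Its log2 fold change at 24 h against untreated was -0.33 ± 0.26, with a 95% interval of -0.90 to 0.25 and an adjusted p of 0.796 by edgeR's quasi-likelihood test. Replicate 1 was the higher library in every group, and that gap was as wide as the one between the groups. NEK2, a centrosome kinase named here because it gave the highest 24 h value, had 20.3 and 19.1 CPM at 0.5 h, 24.0 and 24.4 CPM at 24 h, and 17.8 and 22.8 CPM in untreated cells. Its log2 fold change at 24 h was 0.25 ± 0.17, with a 95% interval of -0.13 to 0.63 and an adjusted p of 0.753 by the same test.

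In the spindle checkpoint, BUB3 and MAD2L1 were the only genes of the 38 with an unadjusted p under 0.05 at 24 h against 0.5 h, and neither passed the adjusted test in the model without a replicate term. BUB3, which carries BUB1 and BUBR1 to unattached kinetochores, lies on chromosome 10 from 123154277 to 123170467 (hg38, GENCODE 29). It had 76.0 and 74.96 CPM at 0.5 h, 60.1 and 56.0 CPM at 24 h, and 70.6 and 65.7 CPM in untreated cells. The 3 groups did not overlap: the 0.5 h pair was highest and the 24 h pair lowest. Its log2 fold change was -0.23 ± 0.10 at 24 h against untreated, with a 95% interval of -0.45 to -0.0033 and an adjusted p of 0.614 by edgeR's quasi-likelihood test. At 24 h against 0.5 h it was -0.38 ± 0.10, with a 95% interval of -0.60 to -0.16 and an adjusted p of 0.754. The unadjusted p of BUB3 was under 0.05 in both.

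MAD2L1, the checkpoint protein that sequesters CDC20, had 53.9 and 44.6 CPM at 0.5 h, 40.2 and 33.8 CPM at 24 h, and 50.7 and 39.2 CPM in untreated cells. The 24 h and untreated pairs overlap, and both 24 h libraries lie below both 0.5 h libraries. Its log2 fold change at 24 h against untreated was -0.27 ± 0.16, with a 95% interval of -0.64 to 0.10 and an adjusted p of 0.726 by edgeR's quasi-likelihood test. Between 24 h and 0.5 h it was -0.41 ± 0.16, with a 95% interval of -0.77 to -0.049 and an adjusted p of 0.765. Without untreated replicate 1 the 24 h value against untreated was -0.08, and without untreated replicate 2 it was -0.46, so its size depends on which untreated library is used. At 24 h against 0.5 h its unadjusted p was not under 0.05 without 0.5 h replicate 1 or without 24 h replicate 2.

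The other checkpoint and anaphase genes had 24 h values against untreated between -0.045 and 0.14. BUB1B, which encodes BUBR1, had 80.1 and 70.9 CPM at 0.5 h, 78.4 and 71.3 CPM at 24 h, and 73.2 and 81.3 CPM in untreated cells, with all 3 groups overlapping. TTK (MPS1), the kinase that starts checkpoint signalling, had 41.7 and 35.4 CPM at 0.5 h, 36.8 and 43.8 CPM at 24 h, and 33.9 and 39.2 CPM in untreated cells. The 24 h log2 fold changes of the rest were 0.094 for BUB1, a kinetochore kinase, 0.03 for CDC20, the activator of the anaphase-promoting complex, and 0.13 for UBE2C, its ubiquitin-conjugating enzyme.

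**Figure D4:**
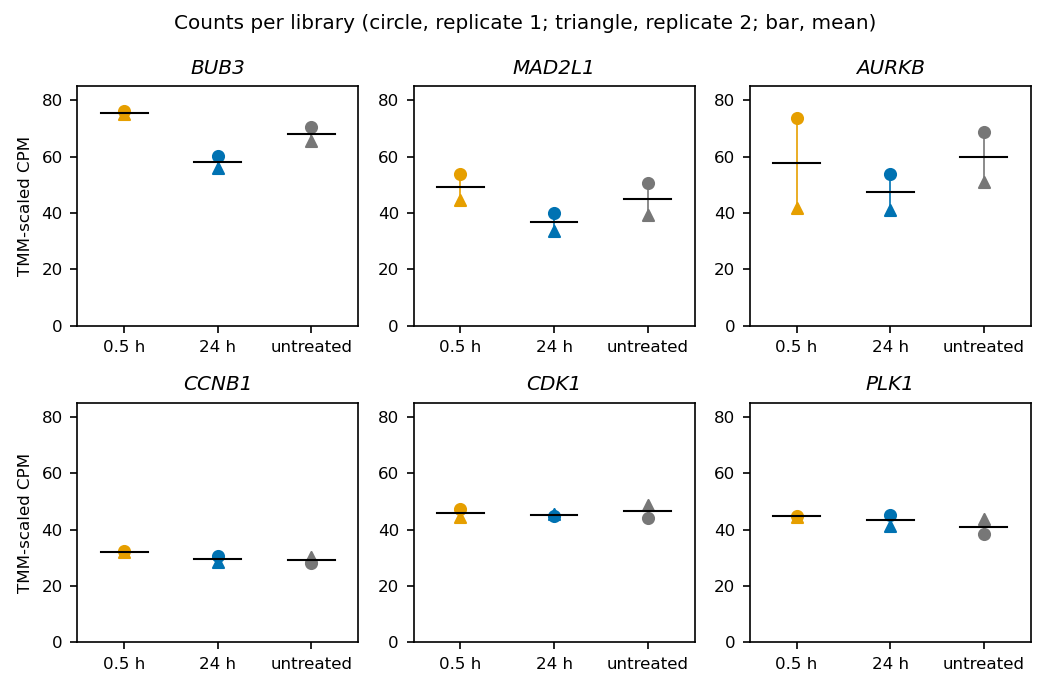
CPM of 6 genes in every library, in the 0.5 h, 24 h and untreated groups, with circles for replicate 1, triangles for replicate 2 and a bar at the mean. The 24 h libraries of BUB3, at 60.1 and 56.0 CPM, lie below both untreated libraries, whereas those of CDK1, CCNB1 and PLK1 fall among or above the untreated values.

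Centromere and chromosome genes had 24 h log2 fold changes from -0.15 to 0.16 against untreated. CENPA, the histone H3 variant that marks centromeres, had 76.7 and 76.2 CPM at 0.5 h, 84.2 and 71.3 CPM at 24 h, and 80.7 and 84.8 CPM in untreated cells. CENPF, a large protein of the outer kinetochore, had 159 and 117 CPM at 0.5 h, 149 and 119.97 CPM at 24 h, and 159.5 and 129 CPM in untreated cells. Replicate 1 of CENPF was the higher library in every group. TOP2A, the topoisomerase that untangles sister chromatids, had 63.2 and 60.0 CPM at 0.5 h, 66.7 and 68.0 CPM at 24 h, and 61.9 and 67.3 CPM in untreated cells, and its log2 fold change at 24 h was 0.058 ± 0.10. NUF2, a subunit of the NDC80 complex that binds microtubules, had 49.4 and 43.9 CPM at 0.5 h, 43.6 and 37.5 CPM at 24 h, and 48.1 and 42.6 CPM in untreated cells, with the 24 h and untreated pairs overlapping. The 24 h log2 fold changes were 0.16 for CENPE, a kinetochore motor, and -0.13 for NDC80. The median of the 6 genes was -0.065 at 0.5 h and -0.091 at 24 h.

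Of the spindle genes, KIF11 (Eg5), the motor that pushes the poles apart, had 218 and 181 CPM at 0.5 h, 187 and 176 CPM at 24 h, and 178 and 195 CPM in untreated cells. The log2 fold change of KIF11 was 0.10 ± 0.12 at 0.5 h and -0.041 ± 0.12 at 24 h. TPX2, which activates AURKA on the spindle, had 77.2 and 67.5 CPM at 0.5 h, 80.2 and 73.9 CPM at 24 h, and 75.9 and 80.7 CPM in untreated cells. The groups of both genes overlap in every comparison. HMMR, a microtubule-associated protein, had 54.9 and 50.1 CPM at 0.5 h, 53.4 and 46.8 CPM at 24 h, and 41.4 and 49.3 CPM in untreated cells. Its value at 0.5 h, 0.21 ± 0.13 with a 95% interval of -0.075 to 0.49, was the highest of the 38. GTSE1, which stabilises spindle microtubules, had 45.2 and 45.6 CPM at 0.5 h, 50.3 and 41.6 CPM at 24 h, and 51.7 and 49.8 CPM in untreated cells, and both 0.5 h libraries lay below both untreated ones. The 24 h log2 fold changes were 0.014 for DLGAP5, a spindle assembly factor, and -0.15 for KIF2C, a kinesin that takes microtubules apart.

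The genes of cytokinesis had a median close to 0 at both times. ANLN, the scaffold of the contractile ring, had 87.7 and 93.2 CPM at 0.5 h, 85.3 and 88.6 CPM at 24 h, and 81.8 and 97.6 CPM in untreated cells. KIF4A, a motor of the central spindle, had 62.4 and 63.2 CPM at 0.5 h, 60.8 and 63.2 CPM at 24 h, and 63.1 and 57.2 CPM in untreated cells. ECT2, which activates RhoA at the cleavage site, had 65.7 and 58.7 CPM at 0.5 h, 65.5 and 55.4 CPM at 24 h, and 62.6 and 60.4 CPM in untreated cells. For all 3 genes the exposed and untreated pairs overlap at 24 h. KIF20B, a midzone kinesin, had 58.0 and 50.1 CPM at 0.5 h, 56.4 and 52.4 CPM at 24 h, and 53.4 and 50.9 CPM in untreated cells. The remaining motors, KIF20A and KIF23, had log2 fold changes of 0.18 and -0.11 at 0.5 h, and of 0.11 and 0.034 at 24 h. Over the 6 tested genes of this role the median was 0.037 at 0.5 h and 0.039 at 24 h.

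The difference between exposure times was tested directly. At 24 h against 0.5 h, log2 fold changes of the 38 genes ran from -0.41 to 0.29 with a median of -0.033, and 14 were above 0 and 24 below, where 49.5% of all genes were below. Without 0.5 h replicate 1, 12 were below 0. BUB3 and MAD2L1 had an unadjusted p under 0.05, both on the lower side, where 3.62% of all genes did, and 2.8% did on the higher side. Both 24 h libraries lay above both 0.5 h libraries for NEK2, BUB1, TOP2A and KIF23, against 19.4% of all genes. They lay below for CCNB1, CCNA2, BIRC5, BUB3, MAD2L1, NUF2 and KIF2C, against 19% of all genes. These values share their 0.5 h and 24 h libraries with the comparisons against untreated.

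Other lists of cell cycle genes were set beside the 38. None of their genes was called at 24 h against untreated with the low-count filter and no replicate term. Without the filter, 4 G1/S genes and 1 gene of DREAM, MuvB and NF-Y were called, where 0.698% of all genes were. Calls with a replicate block are given below. Of 69 tested genes among 73 other mitotic genes, 57 were below 0 with a median log2 fold change of -0.12, where 49.6% of all genes were below 0. An unadjusted p was under 0.05 for 7 of the 69 on the lower side and 1 on the higher, where 4.09% and 4.01% of all genes were. KIF18B, a plus-end kinesin, had 64.3 and 58.6 CPM at 24 h, against 83.1 and 74.4 CPM in untreated cells, with an adjusted p of 0.553 by edgeR's quasi-likelihood test. INCENP, the scaffold of the passenger complex, had 52.2 and 50.2 CPM at 24 h, against 61.8 and 64.0 CPM in untreated cells. NCAPH2, a subunit of condensin II, had 29.02 and 35.2 CPM at 24 h, against 44.0 and 41.8 CPM in untreated cells. KIF18B, INCENP and NCAPH2 were named for the smallest p of their list, and in each the 24 h libraries lay below both untreated ones. Over the list, both 24 h libraries lay below for 30 of the 69 genes, against 18.5% of all genes. They lay above for 2, against 18.8%. Library medians of log2 ratios to each gene's untreated mean were 0.025 and -0.025 in the untreated libraries, which mirror each other by construction. In the 24 h libraries they were -0.085 and -0.17, below both. With each library of these groups left out, the list's median fold change ran from -0.17 to -0.089, with 50 to 56 genes below 0. The 2 mitotic lists were not tested against each other.

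Regulators of the mitotic genes were examined in the same way. Of 13 tested genes of DREAM, MuvB and NF-Y, 9 were below 0 at 24 h, with a median of -0.15, where 49.6% of all genes were below 0. MYBL2, which encodes B-MYB, had 64.7 and 51.5 CPM at 24 h, against 97.3 and 70.8 CPM in untreated cells, with an adjusted p of 0.553 by edgeR's quasi-likelihood test. LIN9, a MuvB subunit, had 124 and 119 CPM at 24 h, against 143 and 148 CPM in untreated cells, and RBL1 (p107), a DREAM pocket protein, had 94.3 and 94.3 CPM at 24 h, against 113 and 114 CPM in untreated cells. These 3 genes were named for the smallest p of their list, and in each the 24 h libraries lay below both untreated ones. Over the list, both 24 h libraries lay below for 8 of the 13 genes, against 18.5% of all genes. They lay above for 0, against 18.8%. On the same scale of ratios to the untreated mean, library medians were -0.0013 and 0.0013 in the untreated libraries. In the 24 h libraries they were -0.16 and -0.19, below both. With each library of these groups left out, the list's median fold change ran from -0.19 to -0.14, with 9 to 12 genes below 0. Of 15 tested genes of the anaphase-promoting complex 8 were below 0, with a median of -0.023. That median was -0.085 with 12 genes below 0 without untreated replicate 1, and 0.049 with 7 below 0 without untreated replicate 2. ANAPC7, a subunit of that complex, had 23.5 and 21.3 CPM at 24 h, against 30.0 and 29.2 CPM in untreated cells, with an adjusted p of 0.574 by the same test.

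Genes of the G1/S transition and DNA replication were the last list. Of 27 tested, 26 were below 0 at 24 h against untreated, with a median of -0.16, where 49.6% of all genes were below 0. An unadjusted p was under 0.05 for 6 of them, all on the lower side, where 4.09% of all genes were. MCM5, a subunit of the replicative helicase, had 60.3 and 59.7 CPM at 24 h, against 111 and 80.0 CPM in untreated cells, with an adjusted p of 0.383 by edgeR's quasi-likelihood test. POLE, the leading-strand polymerase, had 91.4 and 84.7 CPM at 24 h, against 145 and 114 CPM in untreated cells. Over the list, both 24 h libraries lay below both untreated ones for 8 of the 27 genes, against 18.5% of all genes. They lay above for 0 genes, against 18.8%. As log2 ratios to each gene's untreated mean, the G1/S library medians were 0.17 and -0.17 in the untreated libraries, a pair that mirrors by construction. Those of the 24 h libraries were -0.11 and -0.27, so the list's groups overlap. The 24 h median fold change was -0.029 without untreated replicate 1 and -0.32 without untreated replicate 2. With each library of these groups left out, 20 to 25 genes were below 0.

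**Figure D5:**
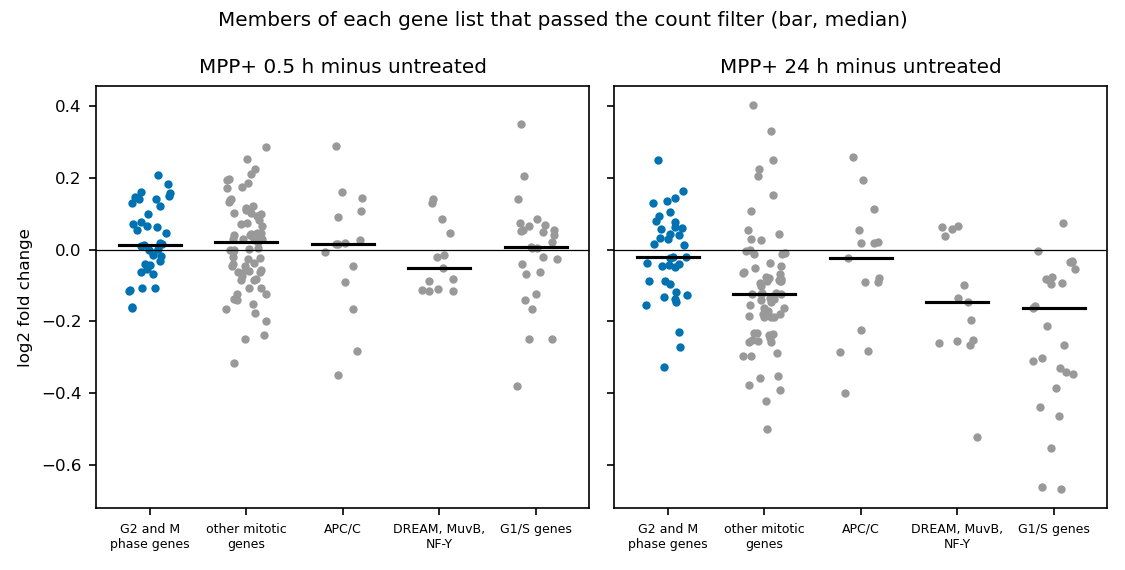
Log2 fold changes at 0.5 h and at 24 h, each against untreated, for the tested genes of each list, with 1 point per gene and a bar at the median. At 24 h the 38 mitotic genes centre on -0.021, the other mitotic genes on -0.12 and the G1/S genes on -0.16.

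The authors' deposited tables of differential genes list 17 genes for the 0.5 h comparison and 24 for the 24 h comparison, and 0 of the 40 genes are in either.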

How the data were processed

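Trimmed reads were aligned with Bowtie2, per the file headers; the submitters' processing notes name the build hg38 and, with no role, Bowtie2 2.4.2, featureCounts 2.0.1 and cutadapt 1.16.5, among others. The deposited files hold raw counts per gene for each library. No source used here gives the strand, feature type or annotation release of the counting. Per the file headers, the columns of the authors' deposited comparisons are a mean signal of normalized counts, a log2 fold change, a Wald score, a p-value and gene positions, with the direction of the ratio not stated. They were used only to look for the 40 genes.

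Of 67051 identifiers, a gene name table gave 60437 a symbol and GENCODE 29 another 243, leaving 6371 unnamed. Counts were filtered with filterByExpr by group, scaled by TMM and fitted with edgeR 4.0.16 in R 4.3.3 (quasi-likelihood F test, all 6 libraries, 1 coefficient per group, 3 residual degrees of freedom), with Benjamini-Hochberg adjustment over 23133 genes and a threshold of 0.05. The common biological coefficient of variation was 0.113. The SE is the absolute log2 fold change divided by the square root of F, and 95% intervals use the moderated degrees of freedom. The script was tested on simulated data. The counts do not separate molecules from PCR copies. A gene at 0 could hold up to 3 counts in a library, a limit that covers counting error only.

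The genes and lists were chosen with earlier results of these data known. Library values are given for up to 4 genes per role with the highest mean CPM, for any gene with an unadjusted p under 0.05 or called under an alternative, and for up to 3 genes of other lists with the smallest p at 24 h, except items that are not reported here. Alternatives were RLE and upper-quartile scaling, 2 other filters, only the 2 groups compared, a replicate block, leaving out each library, and DESeq2 1.42.0.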

Additional observations from a re-analysis of the deposited data

How the results depend on the processing

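With 2 libraries per group, the 95% interval at 24 h against untreated reached 1.23-fold to either side of the estimate for the median of the 38 genes, and 1.36-fold for the median of all tested genes. Leaving out each library in turn, the median log2 fold change of the genes ran from -0.051 to 0.096 at 0.5 h against untreated, from -0.098 to 0.021 at 24 h against untreated, and from -0.12 to 0.042 at 24 h against 0.5 h, and 0 genes were called each time; where 1 library was left in a group, it was assumed to vary like the others. At 24 h against untreated the lowest median, -0.098, came without 24 h replicate 1. RLE or upper-quartile scaling, either other filter, the 2 groups alone and DESeq2 also gave 0 calls among the 38 genes in each comparison.

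The groups share replicate numbers 1 and 2, but the labels do not say that a number marks a shared culture or day. Deviations of replicate 1 from the group mean correlated across genes at 0.33 between 0.5 h and untreated, 0.29 between 24 h and untreated and 0.31 between 24 h and 0.5 h. With the replicate block, 0 of the genes were called against untreated at either time and 2 at 24 h against 0.5 h, where 1.78% of all genes were. These were BUB3, at a log2 fold change of -0.38 with an adjusted p of 0.0298, and MAD2L1, at -0.41 with an adjusted p of 0.0465, by edgeR's quasi-likelihood test. At 24 h against untreated the block gave an unadjusted p under 0.05 for 3 of the genes (BUB3, MAD2L1 and AURKB). It called 9 of 27 G1/S genes, 2 of 69 other mitotic genes and 1 of 13 genes of DREAM, MuvB and NF-Y. Of all genes, 2.96% were called in that comparison with the block. For these lists the block was an alternative chosen after seeing the data. Over all genes, the comparisons of 0.5 h with untreated, of 24 h with untreated and of 24 h with 0.5 h gave 57, 685 and 412 calls with the block and 17, 16 and 0 without it. Without the low-count filter there were 66, 245 and 73, and with DESeq2 20, 30 and 0. The cause was not tested.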

Other observations

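Replicate 1 lay above replicate 2 in all 3 groups for 14 of the 38 tested genes (36.8%), against 21.7% of all tested genes, and replicate 2 lay above replicate 1 in all 3 groups for 5 (13.2%), against 22.3%. CENPF, AURKB, CDC25B, CCNB2 and MAD2L1 are among the 14. These genes were singled out after their values were seen, and the pattern was not tested.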
